A study of Danio rerio with 40 samples.

Results

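Ferritins store iron and the heme breakdown enzymes release it, and 10 zebrafish genes of this pathway are described here in whole brains of naglu mutant fish. They were chosen by name: the ferritin genes fth1a, fth1b, fthl27 and fthl28, the ferritin cargo receptor gene ncoa4, the heme oxygenase genes hmox1a, hmox2a and hmox2b, and the biliverdin reductase genes blvra and blvrb. These are 10 of the 32057 genes in the count table. Each matched 1 row, and all 10 were among the 19668 genes that passed a filter on low counts and were tested. RNA was sequenced from 40 brains of sibling fish aged 6 months, 10 in each of 4 groups. The first group was homozygous for the allele A603fs of naglu (A603fs/A603fs), a model of mucopolysaccharidosis type IIIB, and had received 10 µg ferric citrate in 0.85% saline by intraperitoneal injection 7 days earlier. The second was homozygous and had received 0.85% saline alone. The third was heterozygous (A603fs/+) with ferric citrate, and the fourth was heterozygous with saline. Heterozygous fish are the study's unaffected controls, so fish of both genotypes carried the allele, and all fish were injected and then kept apart from other fish. No wild-type group and no uninjected group were analysed here.

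Ferritin is a hollow shell of protein subunits. Its heavy chain, which fth1a and fth1b encode, oxidises ferrous iron so that it can be stored inside the shell. NCOA4 carries ferritin to autophagosomes, which pass it to lysosomes, where its iron is set free. Ferritin production is known to be controlled by iron to a large part at translation, which mRNA counts do not measure. Heme oxygenases open the heme ring and yield iron, carbon monoxide and biliverdin, which biliverdin reductases turn into bilirubin. In mammals HMOX1 is the stress-inducible heme oxygenase, known for high levels in macrophages that take up red cells, and HMOX2 is the constitutive form, prominent in brain neurons.

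The median library held 26889000 counts, the smallest 11772800 and the largest 38516500. The targeted gene naglu was counted in all groups, with medians of 3.53 CPM in homozygous iron fish, 4.48 CPM in homozygous saline fish, 3.62 CPM in heterozygous iron fish and 3.42 CPM in heterozygous saline fish (CPM, counts scaled to a common library size). A count per gene covers mutant and normal transcripts alike, so naglu does not check the labels. A score built from the 50 genes that best separate the genotypes in the other libraries placed 2 libraries with the other genotype, heterozygous saline 5 at 1.18 and heterozygous iron 5 at 1.23. Homozygous libraries scored from 0.71 to 1.23 and the other 18 heterozygous libraries from -0.41 to 0.34, so the genotype calls are given with and without both. Both were picked by genotype-linked expression in these same data, so a stronger genotype difference without them is no separate support. Females made up 5 of 10 homozygous iron fish, 7 of 10 homozygous saline fish, 5 of 10 heterozygous iron fish and 2 of 10 heterozygous saline fish. Each fit had terms for sex and home tank unless another is named. All 14 neuron, 13 oligodendrocyte and 12 endothelium marker rows had counts in every library, as did 11 of 12 erythrocyte rows and 23 of 27 microglia and macrophage rows, and no listed marker was at 0 in all libraries. In whole tissue, fewer cells of a type and less RNA per cell cannot be told apart.

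In the table of gene names fth1b stands as fth1 (ENSDARG00000007975), hmox1a as hmox1 (ENSDARG00000027529) and hmox2a as hmox2 (ENSDARG00000114695). RefSeq's gene table for the assembly GRCz12tu, used here for names and neighbours only, puts fth1a on chromosome 7, fth1b on chromosome 25 and ncoa4 on chromosome 13. It puts fthl27, fthl28, hmox1a and hmox2b on chromosome 3, hmox2a on chromosome 22, blvra on chromosome 2 and blvrb on chromosome 18. The ferritin-like genes fthl27, fthl28, fthl30, fthl31 and fthl29 follow each other on chromosome 3 with no other protein-coding gene between them. Near-identical copies can share reads, and how alike these genes are was not checked, so the split of counts within this row of genes is uncertain.

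The 10 genes differed in how much they varied between brains. The ferritin gene fth1a ranged from 912 to 1422 CPM over the 40 libraries, with a coefficient of variation of 9.38%, and ncoa4 from 84.8 to 116 CPM with 7.40%, the lowest of the 10. The range was 22.3 to 48.8 CPM for fth1b, 133 to 253 CPM for fthl27 and 15.95 to 30.9 CPM for fthl28. Among the heme breakdown genes, hmox2a ranged from 35.2 to 55.7 CPM, hmox2b from 5.86 to 11.5 CPM and blvra from 9.86 to 23.1 CPM. These 6 genes had coefficients of variation from 11.8% to 19.9%. The remaining genes varied more: hmox1a, from 2.52 to 15.2 CPM, with 40.4%, and blvrb, from 1.1 to 15.5 CPM, with 81.7%. CPM is not corrected for transcript length, so it is not used here to rank one gene against another.

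**Figure D1:**
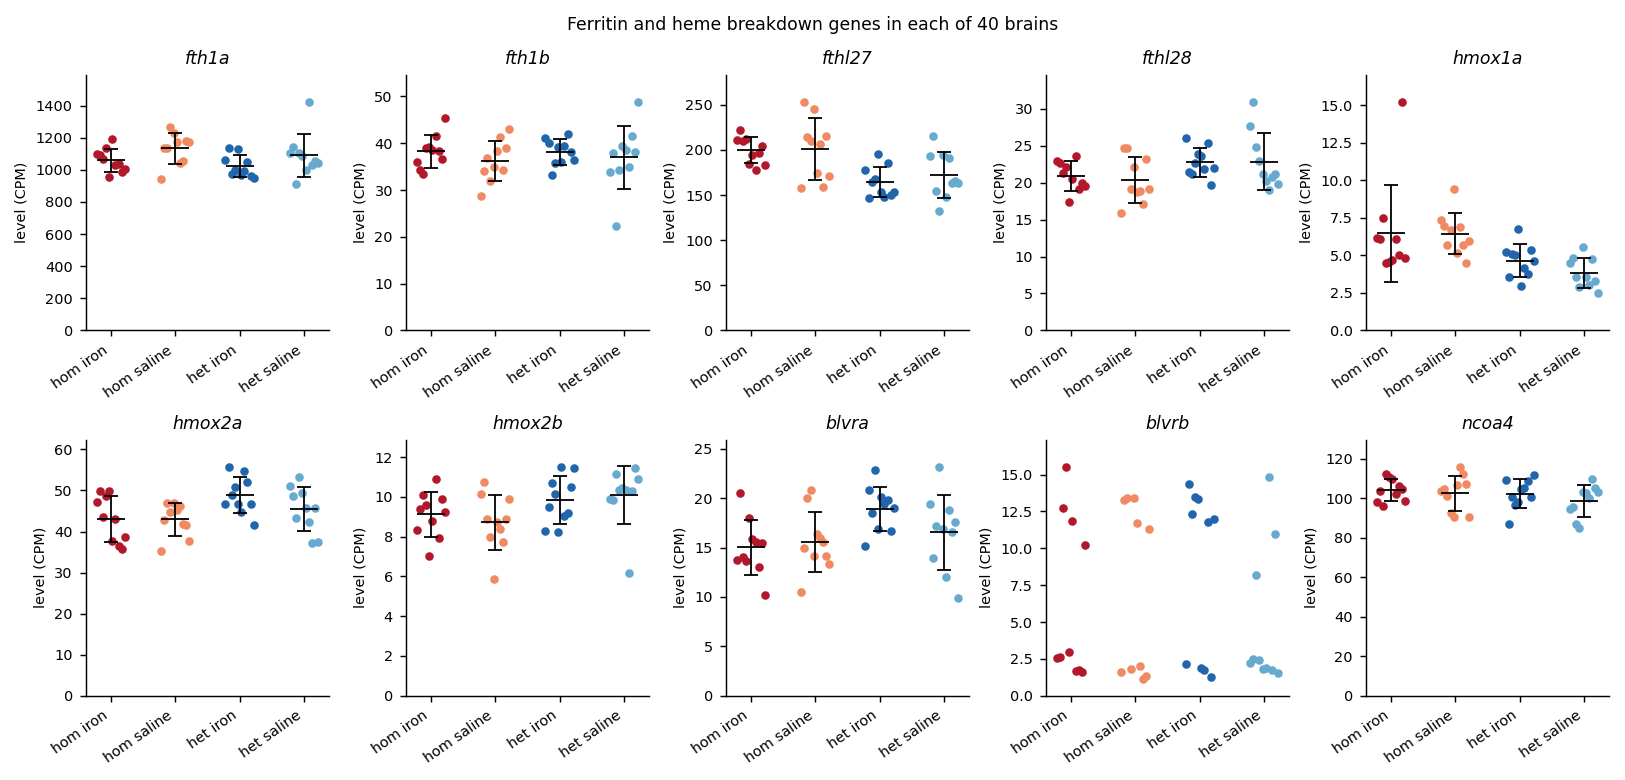
Level of each of the 10 genes in CPM (y axis, starting at 0) in the 4 groups (hom, homozygous; het, heterozygous), 1 point per brain, with the mean and SD in black over 10 brains (left out for blvrb, whose points fall into separate clusters). The hmox1a points of homozygous fish lie higher than most of those of heterozygous fish, and blvrb lies either from 1.1 to 2.99 or from 8.21 to 15.5 CPM in every group.

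Fish homozygous for the naglu allele had higher fthl27 and hmox1a than heterozygous fish, taken over both treatments, while the other 8 genes did not pass the test. The comparison of homozygous with heterozygous fish, averaged over iron and saline, asks whether the mutant brain differs in iron storage and heme breakdown transcripts. Both genes that passed were higher in homozygous fish, 2 of 10, where 4.31% of all tested genes passed in either direction and 2.03% were higher. The median log2 fold change of the 10 genes was 0.0079, and that of all tested genes was -0.0015.

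The ferritin-like gene fthl27 had a lowest, median and highest level of 177, 201 and 222 CPM in homozygous iron fish, against 147, 159 and 195 CPM in heterozygous iron fish. After saline these were 158, 208 and 253 CPM in homozygous fish, against 133, 165 and 216 CPM in heterozygous fish. Homozygous medians were higher under both treatments, and the groups overlapped under both. The log2 fold change over both treatments was 0.25 (SE 0.06, n = 20 per genotype), a level 19.1% higher with a 95% interval of 1.09- to 1.30-fold (edgeR adjusted p = 0.0165). The difference was 0.31 (SE 0.09, edgeR adjusted p = 0.175) after iron and 0.19 (SE 0.09, edgeR adjusted p = 0.314) after saline, and neither passed alone. The library labelled heterozygous iron 5 was the highest of its group at 195 CPM. Without it and heterozygous saline 5, which had 195 CPM as well, the log2 fold change was 0.31 over both treatments (edgeR adjusted p = 0.00172) and 0.38 after iron (edgeR adjusted p = 0.0255). The iron comparison also passed without heterozygous iron 5 alone, at 0.38 (edgeR adjusted p = 0.0396). As these libraries were picked by genotype-linked expression, the larger values without them are no separate support.

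The stress-inducible heme oxygenase gene hmox1a had 4.52, 6.32 and 9.44 CPM as its lowest, median and highest level in homozygous saline fish, against 2.52, 3.54 and 5.59 CPM in heterozygous saline fish. After iron it had 4.46, 5.55 and 15.2 CPM in homozygous fish, against 2.97, 4.83 and 6.79 CPM in heterozygous fish. Homozygous medians were again higher under both treatments, with overlap between the groups. Over both treatments its log2 fold change was 0.56 (SE 0.14, n = 20 per genotype), or 1.47-fold with a 95% interval from 1.20 to 1.80 (edgeR adjusted p = 0.0196). The log2 fold change was 0.66 after saline (SE 0.21, edgeR adjusted p = 0.11) and 0.45 after iron (SE 0.21, edgeR adjusted p = 0.554). The highest level of all, 15.2 CPM, came from homozygous iron 9, while the other 9 fish of its group reached at most 7.46 CPM. Without that library the log2 fold change over both treatments was 0.39 (SE 0.11, edgeR adjusted p = 0.0302), and the saline comparison passed with 0.61 (edgeR adjusted p = 0.0368). After iron the log2 fold change was 0.18 without it (SE 0.15, edgeR adjusted p = 0.882), against 0.45 with it. The libraries labelled heterozygous saline 5, with 5.59 CPM, and heterozygous iron 5, with 6.79 CPM, were each the highest of their heterozygous group. Without both, the log2 fold change was 0.65 over both treatments (edgeR adjusted p = 0.0055) and 0.76 after saline (edgeR adjusted p = 0.0425). Both had been picked by genotype-linked expression, so here too the larger values are no separate support.

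Within the fish numbered above 40 and those numbered up to 40, neither gene passed, with 20 fish in each part. The log2 fold change of fthl27 over both treatments was 0.19 (SE 0.09) in fish numbered above 40 and 0.22 (SE 0.11) in those up to 40. That of hmox1a was 0.33 (SE 0.30) in fish numbered above 40 and 0.31 (SE 0.15) in those up to 40. All were above 0, and those of hmox1a were smaller than the 0.56 (SE 0.14) of all 40 libraries. With sexes taken apart, fthl27 differed by 0.39 in females and 0.24 in males, and hmox1a by 0.48 in females and 0.62 in males, again without a call.

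The heavy chain genes fth1a and fth1b and the cargo receptor gene ncoa4 had log2 fold changes near 0 between genotypes. That of fth1a was 0.06 (95% interval -0.03 to 0.15), that of fth1b was -0.01 (-0.14 to 0.12) and that of ncoa4 was 0.03 (-0.05 to 0.11). The neighbour of fthl27, fthl28, had -0.12 (SE 0.06, edgeR adjusted p = 0.269), a sign opposite to that of fthl27. Of the remaining heme breakdown genes, hmox2a had -0.14 (SE 0.05, edgeR adjusted p = 0.142), blvra -0.22 (SE 0.09, edgeR adjusted p = 0.186) and hmox2b -0.11 (SE 0.07, edgeR adjusted p = 0.383). All of these were below 0 and none passed. Without heterozygous saline 5 and heterozygous iron 5 the same 2 genes, fthl27 and hmox1a, passed over both treatments, where 8.31% of all tested genes did. The log2 fold changes of fth1a, fth1b, fthl28, ncoa4, hmox2a, hmox2b and blvra then ran from -0.23 for blvra to 0.09 for fth1a, and that of blvrb was 0.58, with no call (edgeR adjusted p from 0.166 to 0.998).

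Taken singly, the comparison of homozygous with heterozygous fish had 0 of 10 genes past the edgeR threshold after saline, where 1.25% of all tested genes passed, and 0 of 10 after iron, where 0.137% passed. At an unadjusted p under 0.05 there were 2 of 10 after saline and 4 of 10 after iron, against 15.3% and 8.32% of all tested genes. DESeq2 and limma voom also called 0 of the 10 in each. The 2 after saline were fthl27 and hmox1a. The 4 after iron were fthl27 and hmox1a, higher in homozygous fish, and hmox2a with -0.20 (SE 0.08) and blvra with -0.33 (SE 0.13), lower in homozygous fish.

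**Figure D2:**
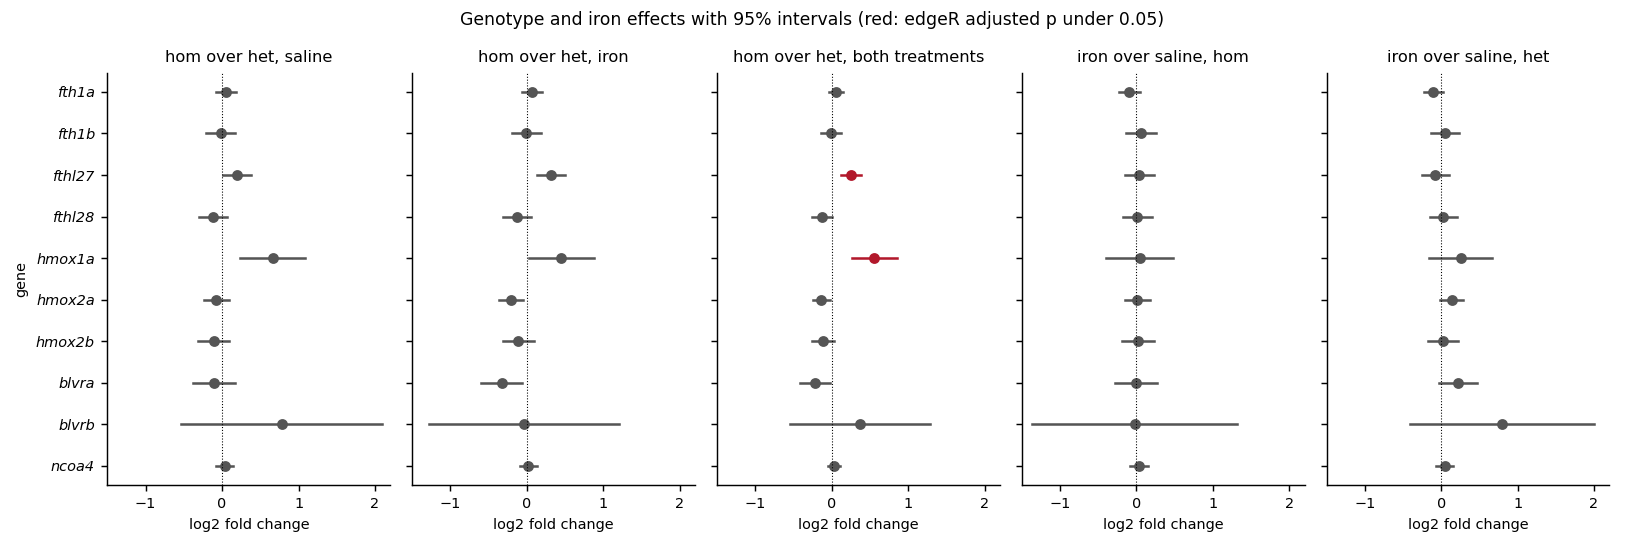
Log2 fold change of each gene (x axis) with its 95% interval in 5 comparisons, homozygous over heterozygous fish and iron over saline, red where the edgeR adjusted p was under 0.05. Only fthl27 and hmox1a over both treatments are red, and the intervals of blvrb are the widest in every panel.

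Of 84 tested genes in 5 other lists of iron and heme handling, 5 rose and 2 fell between genotypes over both treatments. That is 8.33%, beside 4.31% of all tested genes. In detail, 1 of 23 tested genes of iron uptake, export and regulation rose and 0 fell. It was hephl1a, which encodes a hephaestin-like ferroxidase, with 0.30 (SE 0.06, edgeR adjusted p = 0.00272). Of 17 heme synthesis genes 2 rose and 0 fell: alas1, the first enzyme of the pathway, by 0.41 (SE 0.11) and a gene for the mitochondrial glycine transporter, slc25a38 (ENSDARG00000059805), by 0.60 (SE 0.13). Of 10 heme transport genes only slc48a1 (ENSDARG00000026907), a heme transporter of the endolysosome, passed, and it fell by 0.23 on the log2 scale (SE 0.06). Among 20 regulators and targets of Nrf2 and Bach1, the factors known to control HMOX1 in mammals, 2 rose and 0 fell: the peroxidase gene prdx1 by 0.17 (SE 0.05) and the autophagy receptor gene sqstm1 by 0.27 (SE 0.06). Of 14 genes for the autophagy of ferritin, ulk1 (ENSDARG00000074481), a kinase that starts autophagy, fell by 0.17 on the log2 scale (SE 0.05) and 0 rose. The other ferritin-like genes of the row did not pass: fthl31 had 0.03 (SE 0.10), fthl29 had 0.17 (SE 0.21) at no more than 1.79 CPM in any brain, and fthl30, with at most 4 counts in a library, was not tested. The medians of the 5 lists ran from -0.04 to 0.02 on the log2 scale, against -0.0015 for all tested genes. That of the 2 tested ferritin-like genes fthl29 and fthl31 was 0.10. Without heterozygous saline 5 and heterozygous iron 5, 3 genes of iron uptake, export and regulation rose and 1 fell, 2 genes for the autophagy of ferritin fell, and the counts of the other 3 lists were as before. Without homozygous iron 9, 0 genes for the autophagy of ferritin passed, and the other counts were as before. Of all tested genes 8.31% passed without the heterozygous libraries and 3.09% without homozygous iron 9.

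Markers of some cell types moved with genotype in the same comparison, in which 4.31% of all tested genes passed and 2.03% were higher. Of 23 microglia and macrophage markers 3 rose and 0 fell, marco by 1.51 (SE 0.33), havcr1 by 0.60 (SE 0.15) and slc7a7 by 0.80 (SE 0.24), and the list median was 0.38. Taken by treatment, the list median was 0.69 after saline and 0.15 after iron. In each treatment alone 0 of 23 passed, where 1.25% of all tested genes passed after saline and 0.137% after iron. The summed level of the macrophage markers had a lowest, median and highest value of 962, 1537 and 1937 CPM in homozygous iron fish, against 1023, 1415 and 1855 CPM in heterozygous iron fish. After saline these were 1352, 1465 and 2777 CPM in homozygous fish, against 534, 1244 and 2016 CPM in heterozygous fish. Most of that sum came from apoeb, cd74a and apoc1. Of 13 oligodendrocyte markers 11 fell and 0 rose, among them erbb3b with -0.86 and mag with -0.42, and their median was -0.50. Without heterozygous saline 5 and heterozygous iron 5 the counts were 5 of 23 macrophage and 11 of 13 oligodendrocyte markers, in the same directions, and without homozygous iron 9 they were 2 and 11. Of all tested genes 8.31% and 3.09% passed in these fits. Of 11 erythrocyte markers 0 passed, and their median log2 fold change was -0.15. The erythrocyte sum had medians of 383 CPM in homozygous iron fish and 373 CPM in heterozygous iron fish, and of 382 CPM in homozygous saline fish and 300 CPM in heterozygous saline fish. The sum was thus higher in homozygous fish by its medians, while the median over the markers was below 0. Of 9 astroglia, 14 neuron, 12 endothelium and 2 neutrophil markers 0 passed. Their list medians were 0.17, -0.04, 0.07 and -0.06 in that order. Without heterozygous saline 5 and heterozygous iron 5, 1 astroglia marker rose and 1 neuron marker fell. The part of these cell markers in the differences of fthl27 and hmox1a was not tested.

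Across the 40 brains hmox1a varied with macrophage, astroglia and neuron markers, so the relation was not particular to macrophage markers. After group, sex and home tank were removed, Pearson's r between its log2 CPM and that of the summed macrophage markers was 0.54 (Spearman's rho 0.54). The permutation p was 0.00071 for r and 0.00039 for rho, 0.018 and 0.00614 after adjustment over 63 relations of 9 genes with 7 marker lists, and r was 0.51 without the 2 libraries farthest from the median of the marker sum. In all marker relations the 2 farthest libraries were picked by the marker sum, not by the gene. An r without homozygous iron 9, the highest in hmox1a, was not computed. Values left after removal were shuffled as if independent, so these permutation p-values are somewhat too small. With macrophage markers r was 0.71 within fish numbered above 40, which include homozygous iron 9, and 0.31 within those up to 40. The 3 genes whose log2 CPM followed hmox1a most closely over the 40 libraries are given as a description, with no test and with group differences left in. They were cd68, a lysosomal membrane protein of macrophages, with r of 0.88 and rho of 0.84, marco, a macrophage scavenger receptor that is also in the marker list, with r of 0.86 and rho of 0.84, and ctsla, a cathepsin L gene, with r of 0.85 and rho of 0.80. With astroglia markers hmox1a had r of 0.53 and rho of 0.64 (adjusted permutation p = 0.0182 and 0.00126), and r of 0.55 without the 2 farthest libraries. With neuron markers it had r of -0.52 and rho of -0.58 (adjusted permutation p = 0.018 and 0.00315), and r of -0.54 without them. Within fish numbered above 40 its r was 0.53 with astroglia and -0.51 with neuron markers. Within those up to 40 these were 0.66 and -0.62.

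The genes closest to fthl27 over the 40 libraries, again as a description, were adi1, an enzyme of methionine salvage, with r of 0.77 and rho of 0.76, dram2, a lysosomal membrane protein, with r of 0.77 and rho of 0.75, and thyn1, with r of 0.76 and rho of 0.74. Its relation with macrophage markers did not pass (r 0.38 and rho 0.29, adjusted permutation p = 0.0795 and 0.247). That with astroglia markers passed for rho, 0.46, but not for r, 0.39 (adjusted permutation p = 0.0342 and 0.0747). Its r was 0.50 without the 2 farthest libraries, 0.11 in fish numbered above 40 and 0.57 in those up to 40. Of the 63 relations 9 passed for r, and how many would pass for other genes was not computed. Besides the 3 of hmox1a they included that of fthl28 with macrophage markers (r 0.49), which was 0.10 in fish numbered above 40 and 0.23 in those up to 40. They also included those of fthl28 with oligodendrocyte markers (r 0.42) and neuron markers (r -0.45), which did not pass for rho (adjusted permutation p = 0.0905 and 0.079). Within fish numbered above 40 these r values were 0.06 and -0.17, and within those up to 40 they were 0.50 and 0.13. For fth1a and erythrocyte markers r was 0.43 (adjusted permutation p = 0.0498), but it was 0.23 without the 2 farthest libraries. Its rho, 0.29, did not pass (adjusted permutation p = 0.247). Within fish numbered above 40 r for this pair was 0.51, and within those up to 40 it was 0.34.

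**Figure D3:**
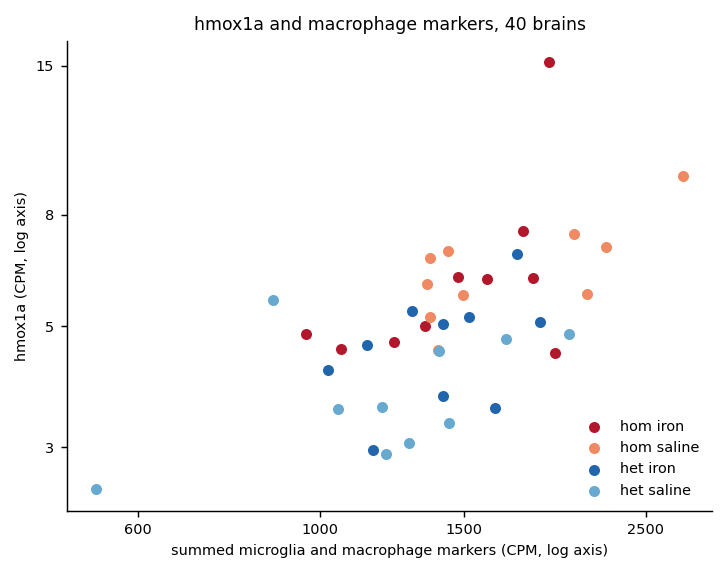
Level of hmox1a (y axis, CPM, log axis) against the summed level of 27 microglia and macrophage marker rows (x axis, CPM, log axis), 1 point per brain, coloured by group. Brains with more marker counts tended to have more hmox1a, and homozygous iron 9, at 15.2 CPM, is the highest point.

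Injected iron changed none of the 10 genes detectably 7 days later. In iron against saline fish, edgeR called 0 of 10 in homozygous fish, 0 of 10 in heterozygous fish and 0 over both genotypes, and 0% of all tested genes in each. At an unadjusted p under 0.05 the counts were 0, 0 and 1 of the 10, against 1.46%, 3.37% and 1.91% of all tested genes, and DESeq2 and limma voom called 0 of the 10 in each. The ferritin gene fth1a had medians of 1054 CPM in homozygous iron fish and 1155 CPM in homozygous saline fish, and of 997 CPM in heterozygous iron fish and 1069 CPM in heterozygous saline fish. It was the 1 gene under the unadjusted limit, with a log2 fold change over both genotypes of -0.10 (95% interval -0.19 to -0.01, edgeR unadjusted p = 0.0326).

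The intervals bound the response to iron that these libraries could have missed. Over both genotypes the log2 fold change of fthl27 was -0.02 (95% interval -0.15 to 0.11), that of fth1b 0.06 (-0.07 to 0.19), that of fthl28 0.02 (-0.11 to 0.15) and that of ncoa4 0.04 (-0.04 to 0.12). For the heme oxygenase genes it was 0.15 for hmox1a (-0.14 to 0.44), 0.07 for hmox2a (-0.03 to 0.18) and 0.02 for hmox2b (-0.12 to 0.16), and for blvra it was 0.11 (-0.08 to 0.29). A rise of hmox1a of up to 1.36-fold is thus inside its interval. In homozygous fish alone hmox1a had 0.04 (-0.39 to 0.48), and in heterozygous fish alone 0.26 (-0.15 to 0.67). The difference between these responses, homozygous minus heterozygous, was -0.21 (SE 0.30, edgeR unadjusted p = 0.485). These values for hmox1a include homozygous iron 9. Without it the log2 fold change was 0.05 over both genotypes (SE 0.11) and -0.17 in homozygous fish alone (SE 0.16), and the difference between the responses was -0.43 (SE 0.22, edgeR unadjusted p = 0.0593), with no call. Over the other settings run, fits to 1 sex or to 1 range of fish numbers included, the value ran from -0.03 to 0.40 over both genotypes and from -0.23 to 0.60 in homozygous fish. For the interaction of genotype and iron edgeR called 0 of the 10 genes and 0% of all tested genes. At an unadjusted p under 0.05 it was 0 of 10 and 2.53% of all, and DESeq2 and limma voom called 0 of the 10.

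The levels of blvrb, which encodes a biliverdin and flavin reductase, fell into separate clusters that did not follow the groups. In 18 brains it had 8.21 to 15.5 CPM and in the other 22 it had 1.1 to 2.99 CPM, with no brain between, a step of 2.74-fold. The high cluster held 4 of 10 homozygous iron fish, 5 of 10 homozygous saline fish, 6 of 10 heterozygous iron fish and 3 of 10 heterozygous saline fish. That makes 9 of 20 homozygous and 9 of 20 heterozygous fish, 10 of 20 iron and 8 of 20 saline fish, and 9 of 19 females and 9 of 21 males. By home tank the share was 1 of 8 in tank 1, 3 of 8 in tank 2, 6 of 9 in tank 3, 5 of 8 in tank 4 and 3 of 7 in tank 5. By fish number it was 7 of 20 above 40 and 11 of 20 up to 40. None of the other 9 genes had a gap this wide: the widest step between neighbouring brains was 1.43 on the log2 scale for blvrb and at most 0.69, for hmox1a, among the others. How common such a step is over all tested genes is not given here.

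The gene most like blvrb over the 40 libraries was prx, which encodes periaxin, a protein of myelinating Schwann cells in mammals. In the 18 brains with high blvrb, prx had 1.93 to 3.09 log2 CPM, and in the 22 with low blvrb it had -1.15 to 0.63 log2 CPM, so both genes divided the brains in the same way. Within the high brains r was -0.10 and within the low brains -0.13. RefSeq places both on chromosome 18 of GRCz12tu, with 3 protein-coding genes between them. This gene and the clusters were singled out after their values were seen, so they are given without a test. The clusters make the genotype and iron intervals of blvrb wide: its log2 fold change was 0.37 between homozygous and heterozygous fish (95% interval -0.55 to 1.29) and 0.38 between iron and saline fish (-0.53 to 1.30). In fish numbered above 40 relative to those up to 40, the log2 fold change of blvrb was -0.22 (95% interval -1.16 to 0.72).

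**Figure D4:**
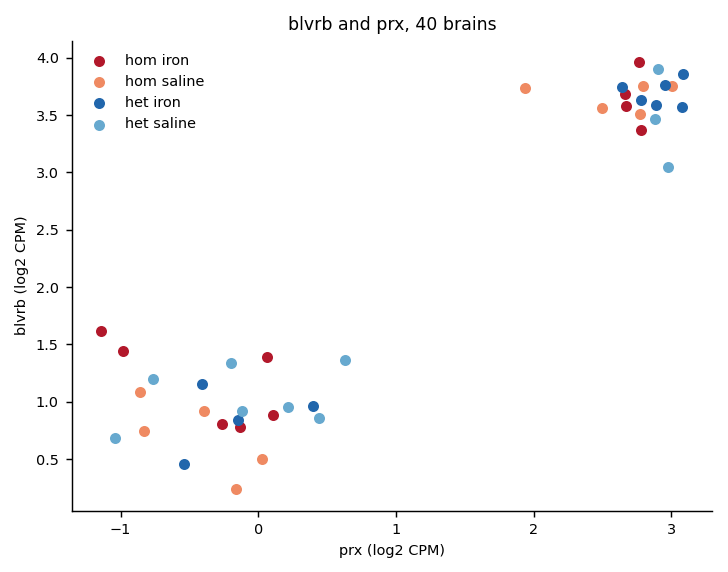
Log2 CPM of blvrb (y axis) against log2 CPM of prx (x axis), 1 point per brain, coloured by group. The 18 brains with high blvrb all have prx at 1.93 or more and the other 22 have it at 0.63 or less, and each cluster holds fish of all 4 groups.

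The fish number, a label of each fish that the sources used here do not explain, went with 4 of the 10 genes. Of the 20 fish numbered above 40, 6 were homozygous iron, 4 homozygous saline, 4 heterozygous iron and 6 heterozygous saline fish. In fish numbered above 40 relative to those up to 40, 2 of the 10 genes rose and 2 fell, where 10.8% of all tested genes rose and 10.6% fell, 21.4% in all. Whether 4 of 10 differs from that share was not tested, so the count is not shown to be particular to these genes. The heavy chain gene fth1b had a lowest, median and highest level of 34.2, 39.1 and 48.8 CPM above number 40, against 22.3, 35.4 and 41.1 CPM up to 40. It rose by 0.19 on the log2 scale (SE 0.05, edgeR adjusted p = 0.013), with overlap between the ranges. The cargo receptor gene ncoa4 had 90.7, 105 and 116 CPM above number 40, against 84.8, 98.4 and 112 CPM up to 40, and rose by 0.11 (SE 0.03, edgeR adjusted p = 0.0197). That call was lost when homozygous iron 1, homozygous iron 3, heterozygous saline 4 or heterozygous iron 10 was left out, with edgeR adjusted p-values of 0.0521, 0.0617, 0.0536 and 0.0526.

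Another ferritin-like gene and a constitutive heme oxygenase gene moved the other way with fish number. The level of fthl28 was 17.1, 20.1 and 25.4 CPM above number 40, against 15.95, 22.8 and 30.9 CPM up to 40, a log2 fold change of -0.18 (SE 0.05, edgeR adjusted p = 0.013). That of hmox2a was 35.8, 42.1 and 54.8 CPM above number 40, against 35.2, 46.9 and 55.7 CPM up to 40, a log2 fold change of -0.15 (SE 0.05, edgeR adjusted p = 0.0224). Both fell with the ranges overlapping. Taken by sex, hmox2a had -0.00 in females (SE 0.09, edgeR adjusted p = 0.989) and -0.21 in males (SE 0.06, edgeR adjusted p = 0.0805), and the difference between the sexes was not tested. The neighbour gene fthl31 fell too, by 0.27 on the log2 scale (SE 0.08, edgeR adjusted p = 0.0142), while fthl29, with -0.46 (SE 0.19, edgeR adjusted p = 0.0816), fthl27, with -0.10, and hmox1a, with -0.05, did not pass. In the same comparison, where 10.8% of all tested genes rose and 10.6% fell, 5 of 14 neuron markers rose and 0 fell. Of 9 astroglia markers 0 rose and 5 fell, and of 23 microglia and macrophage markers 0 rose and 4 fell. Of 13 oligodendrocyte markers 0 rose and 2 fell, and of 12 endothelium markers 1 rose and 2 fell. Of 11 erythrocyte markers 0 rose and 1 fell, and of 2 neutrophil markers 1 rose and 0 fell. After removal of group, sex and tank, fth1b varied with the summed neuron markers, with r of 0.66 and rho of 0.58 (adjusted permutation p = 0.00189 and 0.00315). Without the 2 farthest libraries r was 0.49, and it was 0.60 in fish numbered above 40 and 0.54 in those up to 40. For ncoa4 and neuron markers r was 0.47 and rho 0.50 (adjusted permutation p = 0.0182 and 0.018), with r of 0.42 without the 2 farthest libraries, 0.25 in fish numbered above 40 and 0.11 in those up to 40. The part of these markers in the 4 calls was not tested.

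**Figure D5:**
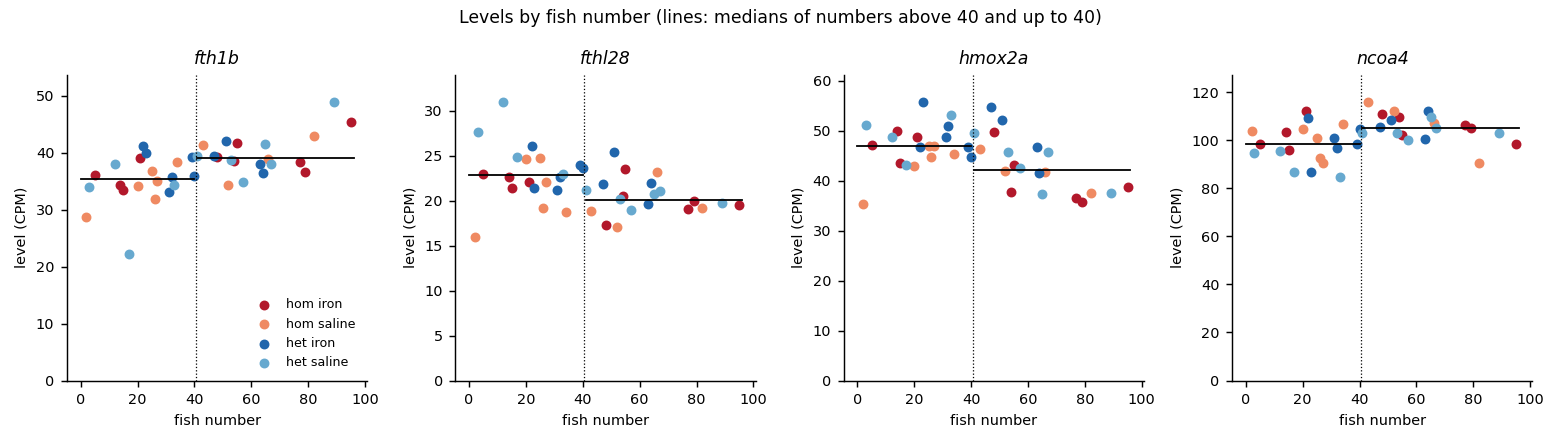
Level in CPM (y axis, starting at 0) of fth1b, fthl28, hmox2a and ncoa4 against fish number (x axis), 1 point per brain, coloured by group, with lines at the medians of fish numbered above 40 and up to 40. The line above 40 is higher for fth1b and ncoa4 and lower for fthl28 and hmox2a, and the points of both ranges overlap in each panel.

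Of the 84 tested genes in the 5 other lists of iron and heme handling, 4 rose and 15 fell with fish number. That is 22.6%, close to the 21.4% of all tested genes. Of 23 genes of iron uptake, export and regulation 1 rose and 7 fell, among them slc25a28, a mitochondrial iron importer, with -0.30, the ceruloplasmin gene cp with -0.76, aco1, which encodes an iron-regulatory protein, with -0.24, and the ferrireductase gene steap4 with -0.74. Of 10 heme transport genes 2 rose and 4 fell, flvcr2 (ENSDARG00000031506) with -0.67 and hebp2 with -0.27 among the falls and flvcr1 with 0.17 and pgrmc2 with 0.11 the rises. Ferrochelatase, fech, which puts iron into heme, was the only one of 17 heme synthesis genes to pass, with -0.89 (SE 0.10). Of 20 Nrf2 and Bach1 genes 3 fell and 0 rose: nfe2l2 (ENSDARG00000042824) with -0.46, bach1 (ENSDARG00000002196) with -0.28 and txnrd3 with -0.16. Of 14 genes for the autophagy of ferritin only atg9a passed, with 0.13.

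Sex was not associated with a call in any of the 10 genes. In females against males edgeR called 0 of 10, where 2.44% of all tested genes passed. At an unadjusted p under 0.05 there was 1 of 10, against 18% of all tested genes, and DESeq2 and limma voom called 0 of the 10. The 1 was hmox2b, with a log2 fold change of -0.18 (SE 0.07, edgeR unadjusted p = 0.0162, adjusted p = 0.169).

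Some of the genes varied together between brains beyond group, sex and tank. Over the 36 pairs of the 9 genes without blvrb, 4 pairs passed a permutation test after adjustment over the pairs (n = 40). How many pairs of other genes would pass was not computed, so the count is not shown to be particular to these genes. Fish number was not among the terms removed. The values left were shuffled as if independent, so these permutation p-values are somewhat too small. The neighbours fthl27 and fthl28 had r of 0.65 and rho of 0.58 (adjusted permutation p = 0.00072 and 0.0054), and r was 0.67 in fish numbered above 40 and 0.82 in those up to 40. With group, sex and tank left in, r for this pair was 0.24, which did not pass. The genes fth1a and fthl27 had r of 0.48 and rho of 0.53 (adjusted permutation p = 0.0135 and 0.00912). In contrast, fth1a and hmox2b ran opposite to each other with r of -0.59 and rho of -0.50 (adjusted permutation p = 0.00126 and 0.0131). Finally, hmox2a and blvra had r of 0.55 and rho of 0.52 (adjusted permutation p = 0.00312 and 0.00912), with r of 0.20 in fish numbered above 40 and 0.50 in those up to 40. Without the 2 libraries farthest from the median of the first gene named, these r values were 0.55 for fthl27 and fthl28, 0.48 for fth1a and fthl27, -0.48 for fth1a and hmox2b and 0.43 for hmox2a and blvra. Without heterozygous saline 5, heterozygous iron 5 and heterozygous saline 10, 3 pairs passed, and that of fth1a and fthl27 had r of 0.42 and did not (adjusted permutation p = 0.0864).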

How the data were processed

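RNA was sequenced from whole zebrafish brains. The authors deposited a table of unnormalized counts, with a row for each Ensembl gene and a column for each brain. The submitters' processing notes name featureCounts, STAR, UMI-tools, fastp and GRCz11. Versions, settings, the order of steps and the use of strand are not given in the sources used. Genes were matched by symbol through a table of gene names.

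The tests used edgeR 4.0.16 and R 4.3.3: filterByExpr on the 4 groups, TMM scaling, and a robust quasi-likelihood fit to all 40 libraries with 4 group means, sex and home tank (31 residual degrees of freedom). Contrasts gave the comparisons, and the fish number comparison added a term for numbers above 40. P-values were adjusted by Benjamini-Hochberg over all 19668 genes tested, and an adjusted p under 0.05 is a call. CPM is scaled to the TMM-adjusted total, and log2 CPM has a prior count of 2. Intervals cover 95%.

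Every brain came from a separate fish, and replicate numbers are names only. Among 780 pairs of libraries, chi-square per degree of freedom was at least 6.60, so no library was taken for a copy. Correlations used 100000 permutations, two-sided. Fits were also run on simulated counts with planted genotype changes, all larger than that of fthl27, and no effects of sex, tank or fish number. Those runs do not check the calls given here. Alternatives used DESeq2 1.42.0, limma 3.58.1 and sva 3.50.0, other scalings, filters and covariates, and fewer libraries. Leaving out each library in turn, the counts of other lists without libraries that stand apart, the marker relations and the genes most like blvrb were chosen after seeing the data.

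The 10 genes and the gene lists were chosen with earlier results of these data known. All 10 genes were tested in every comparison. The text gives values of all 10 for genotype over both treatments and for iron over both genotypes, and of only some genes in the other comparisons. Up to 4 called genes are named from each other list, and the 3 genes with the highest r are named for each gene that passed in a genotype or iron comparison. A listed gene is not reported here by name but is part of the counts.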

Additional observations from a re-analysis of the deposited data

Results flagged for a closer look

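Over 40 sets of 10 brains (10 genes in 4 groups), 4 held a brain that stood apart from the other 9 by more than Dixon's limit for 10 values, where chance gives about 1 in 20. In heterozygous saline fish, replicate 7 had 1422 CPM of fth1a, against 912 to 1142 CPM in the other 9, and 6.19 CPM of hmox2b, against 9.84 to 11.5 CPM. These are a high and a low value of the same brain. Heterozygous saline 3 had 22.3 CPM of fth1b, against 33.9 to 48.8 CPM in the other 9. Homozygous iron 9 had 15.2 CPM of hmox1a, against 4.46 to 7.46 CPM in the other 9. The causes were not tested.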

How the results depend on the processing

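The comparison of homozygous with heterozygous fish over both treatments called 2 of the 10 genes. It called 1 with a spline of fish number (fthl27, while hmox1a had an edgeR adjusted p of 0.0507) and 2 in each fit without a single library (lowest and highest 2). It called 0 with only males, only females, only fish numbers above 40 or only those up to 40. These 4 fits had fewer fish. In each range of fish numbers the log2 fold change of hmox1a was also smaller, 0.33 above 40 and 0.31 up to 40, against 0.56 in all 40 libraries. The saline comparison called 1 instead of 0, hmox1a, with group means only (0.75, adjusted p = 0.00874), with sex but no tank (0.71, adjusted p = 0.0485) and without heterozygous saline 5 and heterozygous iron 5. The iron comparison called 1, fthl27, without those 2 libraries. Without each single library both gave 0 to 1. The fish number comparison called 4, against 1 with 1 surrogate variable (hmox2a), 0 with only males and 0 with only females, and 3 to 4 without a single library. There hmox2a also missed the threshold with group means only (adjusted p = 0.0595) and with sex but no tank (adjusted p = 0.061). The number of correlated pairs was 4, against 6 with no terms removed, 2 in fish numbered above 40, 9 in those up to 40 and 3 without heterozygous saline 5, heterozygous iron 5 and heterozygous saline 10. In the iron, interaction and sex comparisons 0 of the 10 passed under every alternative run. Of 1414 values of uncalled results with other settings, 4 became calls, those named above. No called value changed sign under any of them. The cause of these changes was not tested. Without heterozygous saline 10 no call changed. Of the 40 libraries it had the lowest macrophage (534 CPM), astroglia (2379 CPM), erythrocyte (160 CPM) and endothelium (208 CPM) marker sums. Its neuron marker sum was the highest (12027 CPM). The sex comparison with group means only was not run, because it has no sex term. No paired analysis was possible because each library is a different fish and the replicate numbers only name libraries. Low counts limit hmox1a, with as few as 45 counts in a library, and blvrb, with as few as 23.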
